A study of Homo sapiens with 9 samples.

Results

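Clone 15 is a line of HEK293T cells that carries a pair of luciferase reporters at a low level, and its transcriptome was compared with that of the parental HEK293T cells. HEK293T is a human embryonic kidney line that expresses the SV40 large T antigen. Clone 15 arose from 1 sorted cell after piggyBac transposons had inserted the NLuc construct ATG-(CAG)60-Myc-NLuc and its FLuc counterpart without repeats, ATG-(CAG)0-Myc-FLuc, into the genome, so it differs from the parental culture by the inserts and by its passage through a single cell, and these cannot be told apart. The parental cells carry no insert. Clone 37, the high-level clone made in the same way, is used here only for values set side by side. Cells of all groups grew in DMEM with serum. RNA was DNase-treated and depleted of ribosomal RNA, and 500 ng was made into directional libraries with 13 cycles of amplification. Of the 9 libraries of the series, the 6 of these 2 groups were taken, 3 of clone 15 and 3 parental. Clone 15 was sequenced as paired ends of 100 bp and the parental cells as paired ends of 75 bp, and every result below carries both differences at once, which cannot be told apart. Clone 37 was read at 75 bp like the parental cells, so a contrast between the clones carries the read length too. Of 60683 gene identifiers counted, 17703 passed a filter on low counts, and 13491 of these were protein-coding. The labels do not say that replicates were separate cultures, so p-values measure only the spread between these samples.

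Expanded CAG repeats cause several inherited ataxias and Huntington disease, and long repeats can be translated without a normal start codon. A transposon that lands in or near a gene can change that gene, and a line grown from 1 cell also fixes whatever copy number and silencing state that cell had. HEK293 cells have an unstable, near-triploid genome with many rearranged chromosomes, and they carry a mixed kidney and neuronal marker profile. Position on a chromosome is therefore described first, and pathways after it.

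Gene counts per library ranged from 10809034 to 13902872 in the parental group and from 18654063 to 38093340 in clone 15. Reads with several genomic matches made up 12.8% ± 1.05 (SD, n = 3) of parental read pairs and 5.14% ± 0.743 (SD, n = 3) of clone 15 read pairs (two-sided exact permutation test, p = 0.1, the smallest 3 against 3 allows). Pairs outside annotated genes took 24.8% ± 4.97 and 34.2% ± 0.483, with the lowest share, 19.2%, in parental replicate 2, which also stood apart on the second principal component. The first component, with 72.5% of the variance, separated the groups. No pair of replicates agreed within sampling noise. Clone 15 replicate 2 held 20 processed pseudogenes at over 3 times the level of both other clone 15 libraries, most of them named as copies of ribosomal protein genes. All 10 marker genes of HEK293 cells passed the filter on low counts, with summed levels of 1391 to 1811 CPM in the parental group and 4084 to 4321 CPM in clone 15. Of these genes 4 rose and 1 fell, with a median log2 fold change of 0.16. The higher sum lay mostly in NEFM and NEFL. NEFM was at 566, 667 and 470 CPM in the parental libraries and at 2719, 2594 and 2806 CPM in clone 15. Summed levels of 10 markers of differentiated kidney tubule were 61.6 to 68.3 CPM in the parental group and 56.0 to 60.8 CPM in clone 15, with 4 markers at 0 in all libraries. Of 8 blood cell markers 3 (CD3E, HBA1 and HBB) were at 0 in all 6 libraries, and PTPRC, LYZ, CD14 and CD68 did not pass the filter, CD14 with 34, 11 and 12 counts in clone 15 and 0, 1 and 1 in the parental libraries. The summed level of 6 endothelium markers was 0.681 to 0.829 CPM in the parental group and 1.61 to 3.01 CPM in clone 15, where KDR rose (1.34), the other 5 did not pass the filter and CLDN5 was at 0 throughout. The reporter transcripts were not analysed here.

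Clone 15 replicate 3 also stood apart, in genes of fibroblasts and extracellular matrix. COL1A2, a chain of type I collagen, was at 0 in the 3 parental libraries and at 5.57, 11.9 and 56.7 CPM (read counts scaled to a common library total) in clone 15 replicates 1, 2 and 3. THBS1, which encodes the matrix protein thrombospondin 1, was at 0.46, 0.834 and 0.681 CPM in the parental libraries and at 8.19, 8.4 and 55.1 CPM in clone 15. TGFBI, a matrix protein induced by TGF-beta, was at 0.0921, 0.152 and 0 CPM against 1.49, 1.91 and 10.2 CPM. In each case all clone 15 libraries lay above all parental ones, and replicate 3 lay far above replicates 1 and 2. COL1A2, TGFBI and GREM1 were tested only through clone 15, so their direction was fixed by the filter. Protein-coding genes at over 3 times the level of both other libraries of the group numbered 6 in replicate 3 (THBS1, GREM1, TGFBI, COL1A2, COL6A3 and ANPEP), 1 in clone 15 replicate 2 and 0 in the others. Of the 8 fibroblast markers listed (COL1A1, COL1A2, DCN, LUM, PDGFRB, PDGFRA, THY1 and TWIST1), summed levels were 53.2 to 56.7 CPM in the parental group and 66.5, 85.1 and 185 CPM in clone 15. LUM and TWIST1 fell in clone 15, COL1A1 and COL1A2 lay above all parental libraries without passing the test with all libraries, PDGFRA did not pass, and DCN, PDGFRB and THY1 did not pass the filter. In bulk RNA more cells of one type and more RNA per cell cannot be told apart. COL1A2, THBS1 and TGFBI did not pass the test with all libraries (adjusted p = 0.171, 0.0567 and 0.0665 by edgeR's quasi-likelihood test). Without replicate 3 all of them did (adjusted p = 9.34e-04, 4.02e-10 and 4.52e-06). TGFBI also passed without clone 15 replicate 1 or replicate 2 (adjusted p = 0.0176 and 0.0466). With all libraries kept, DESeq2 called COL1A2, THBS1 and TGFBI (adjusted p = 2.71e-07, 1.17e-06 and 1.71e-04), as did the fit with the replicate block (adjusted p = 2.71e-13, 1.00e-05 and 3.85e-07), and THBS1 and TGFBI were also called in thinned libraries (adjusted p = 0.0425 and 7.81e-04) and in the fit to all 9 libraries (adjusted p = 0.0168 and 0.0225).

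**Figure D1:**
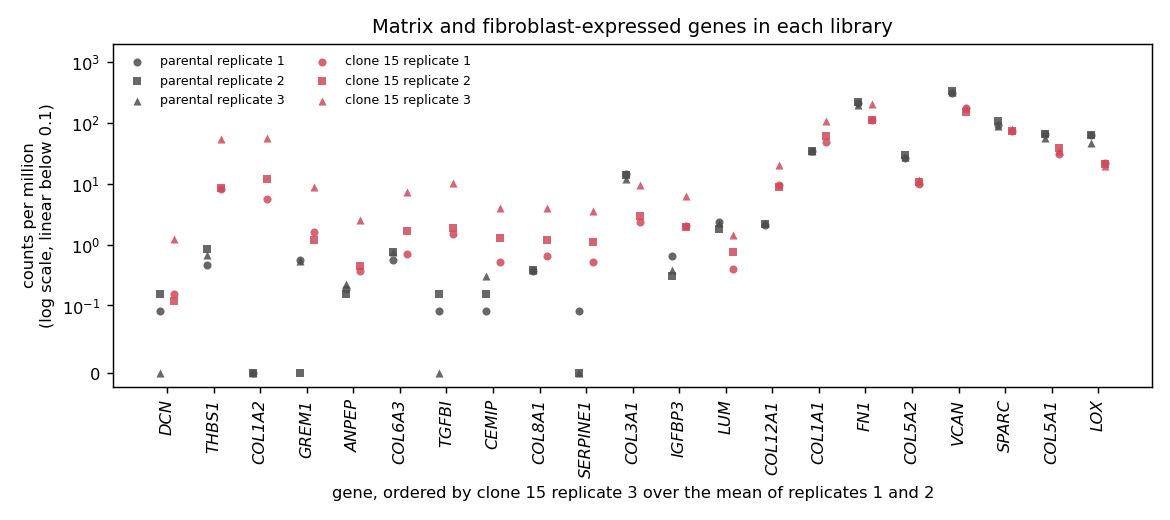
Levels of 21 matrix and fibroblast-expressed genes, chosen after their values were seen, in CPM on an axis that is logarithmic above 0.1, with 1 point per library (grey parental, red clone 15). Triangles of clone 15 replicate 3 lie above the other clone 15 points for the genes on the left, while LOX, VCAN, COL5A1 and COL5A2 on the right lie below the parental points in all 3 clone 15 libraries.

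Across protein-coding genes, 7619 of 13491 (56.5%) passed edgeR's quasi-likelihood test at an adjusted p (Benjamini-Hochberg, over all genes tested) under 0.05. Of these, 3505 rose in clone 15 (26.0% of those tested) and 4114 fell (30.5%). Changes of at least 2-fold were fewer, 387 higher (2.87%) and 632 lower (4.68%). The groups did not overlap in 63.4% of the protein-coding genes tested. Of these genes 101 reached the filter's level of 0.614 CPM in no clone 15 library and 100 in no parental library, so each was tested only through the group where it was high and its direction was fixed by the filter. The median log2 fold change over all of them was -0.02. Fold changes are clone 15 over parental on the log2 scale throughout. Base composition moved with the comparison. When protein-coding genes were split into 4 equal groups by GC content, in the group with the least GC, 8.01% rose and 51.2% fell (median -0.25), and in the group with the most GC, 40.1% rose and 17.9% fell (median 0.18). Split likewise by transcript length, the longest group had a median of -0.13 and the shortest 0.11. After the dependence on GC content and transcript length had been removed, these groups had medians between 0.01 and 0.07, and several list medians are given below both ways.

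On several chromosomes most called genes differed in 1 direction. On chromosome 2, 643 of 906 protein-coding genes fell and 27 rose (median -0.48), on chromosome 7, 347 of 625 fell and 50 rose (-0.35), and on chromosome 16, 286 of 597 fell and 48 rose (-0.24). In the other direction, 403 of 791 genes rose and 81 fell on chromosome 17 (median 0.28), 197 rose and 44 fell of 362 on chromosome 20 (0.28), and 331 rose and 109 fell of 762 on chromosome 11 (0.21). The medians with GC and length trends removed were -0.38, -0.29, -0.28, 0.24, 0.28 and 0.21. Chromosome 13, with a median of -0.23, was at -0.08 once those trends were removed. For chromosome 2 the clone 15 libraries had medians of -0.46, -0.52 and -0.47 relative to the parental mean, and the parental libraries -0.03, 0.08 and -0.04. The groups did not overlap on 13 of 23 chromosomes, chromosomes 2, 7, 8, 11, 13, 16, 17 and 20 among them (exact permutation test on the library medians, p = 0.1 for each, the smallest possible). In windows of 20 Mb, chromosome 2 was lower in each window along its length, with medians between -0.38 and -0.65 in 12 windows and -0.14 in the last, which held 22 genes.

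**Figure D2:**
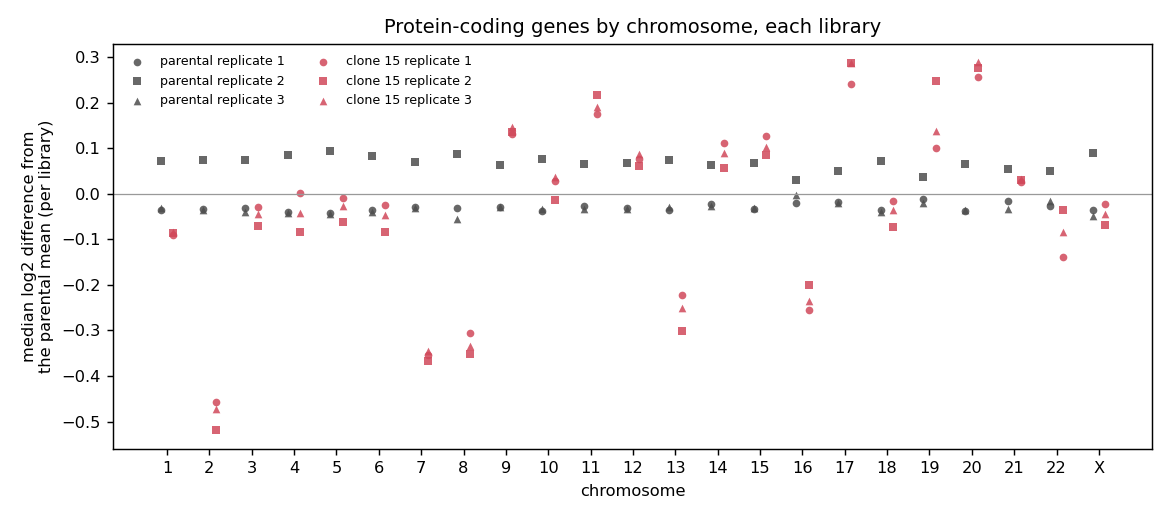
Median log2 difference from the parental mean for protein-coding genes with a mean of at least 5 CPM, by chromosome, with 1 point per library (grey parental, red clone 15). On chromosome 2 the clone 15 libraries lie at -0.46, -0.52 and -0.47, on chromosome 17 at 0.24, 0.29 and 0.29, and parental replicate 2 lies above the other parental libraries on every chromosome shown.

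Chromosome 8 was divided. In its first 40 Mb, 50 of 150 protein-coding genes rose and 36 fell (median 0.06), and beyond 40 Mb, 17 of 314 rose and 216 fell (median -0.47, and -0.35 with GC and length trends removed). This boundary was chosen after the values were seen. In clone 37, whose comparison used the same parental libraries, the medians of the 2 stretches were 0.01 and 0.17. Of the genes described below, MYOM2, NEFM, NEFL, CLU and NRG1 lie in the first stretch and rose, and HAS2 and SQLE lie in the second and fell. On chromosome 16 each window was lower, with medians of -0.185, -0.35, -0.42, -0.20 and -0.19 in order. The 2 lowest, between 20 and 60 Mb, were at 0.19 and 0.13 in clone 37. On chromosome 1 the first 20 Mb were higher, with 105 of 170 genes up, 13 down and a median of 0.41. Clone 37 had a median of 0.31 there.

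Runs of neighbouring genes that all changed in 1 direction were also found, most of the longest on chromosomes named above. The longest lower run held 39 consecutive tested genes on chromosome 2 (chr2:169509702-176095938, GRCh38), from KLHL41 to HOXD13, with a median of -0.66. It includes PDK1, the kinase that restrains pyruvate dehydrogenase (-1.78), the homeobox genes DLX1 and DLX2, ITGA6, an integrin chain (-0.26, and not called at -0.10 with GC and length trends removed), WIPF1, a regulator of actin assembly (-1.14), the iron reductase CYBRD1 (-1.16), the histone acetyltransferase HAT1 (-0.66) and ATF2 (-0.88). Clone 37 was lower here too, with a median of -0.42. A run of 17 genes on chromosome 7 (chr7:77537275-87480435) held 4 class 3 semaphorins, which are secreted guidance cues: SEMA3C (-2.05), SEMA3D (-1.48), SEMA3E (-1.24) and SEMA3A (-1.08). Another 17 genes fell from RTN4 to SANBR on chromosome 2 (chr2:54972187-61138034), with the fibulin EFEMP1 (-1.84), the NF-kappa-B subunit REL (-0.99) and the repressor BCL11A (-0.43) among them. On chromosome 8, 17 fell from RUNX1T1 to CFAP418, a stretch where clone 37 had a median of 0.24, whereas it had -0.48 from RTN4 to SANBR and -0.21 in the run of semaphorins. The longest higher run held 12 genes on chromosome 17 (chr17:81539885-81871406), from FAAP100 to ARHGDIA, with a median of 0.76, and a further 11 lay just beyond it, from ASPSCR1 to CSNK1D, with FASN among them. Other runs of 11 lay on chromosome 1, from PRDM2 to SLC25A34, and on chromosome 20, from NKX2-4 to APMAP. Chromosome 3, whose genes had a median of -0.03, held a higher run of 10 genes from MAP6D1 to EEF1AKMT4 (median 0.72). The run of chromosome 20 (chr20:21395367-24992979) held FOXA2, a pioneer transcription factor of endoderm (3.07, tested only through clone 15), the thrombin receptor THBD (1.52) and the paired-box gene PAX1 (1.32).

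Lists of genes grouped by function were then described by their counts and medians, to be read against the 26.0% of protein-coding genes that rose and the 30.5% that fell. Because members lie on chromosomes with different medians, some list medians are also given after the median of each gene's own chromosome was subtracted, a step added after the data were seen. The integrated stress response, glycolysis and the hypoxia response, collagens, other matrix proteins, and axon guidance genes were lower. More members rose than fell among proteasome subunits, tubulins, targets of the transcription factor NRF2, and genes of the mitochondrial ribosome and of mitochondrial protein import. Ribosomal proteins, splicing factors and DNA methylation genes had medians near 0, which were -0.10, 0.17 and 0.11 with GC and length trends removed.

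**Figure D3:**
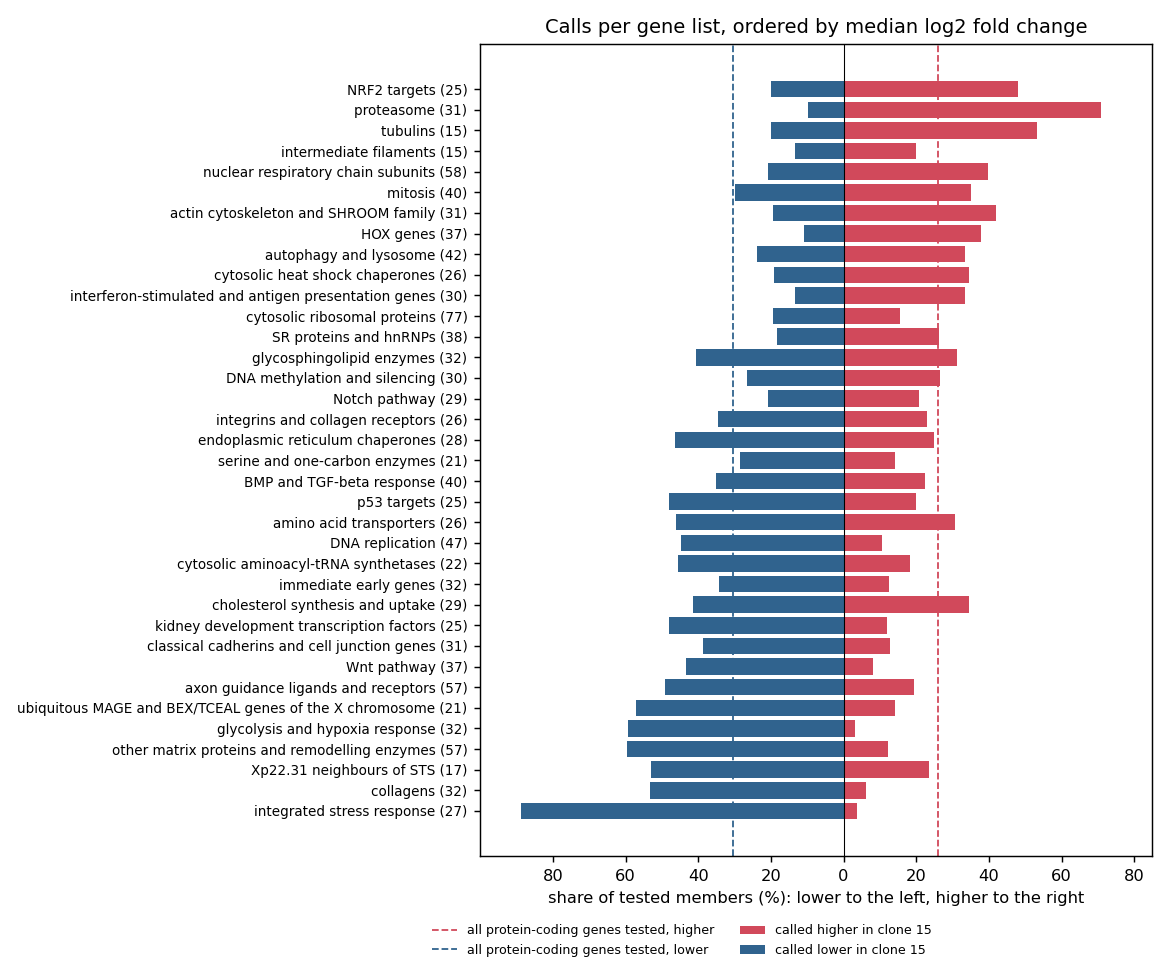
Share of the tested members of each gene list with at least 15 of them called higher (red, to the right) or lower (blue, to the left) in clone 15, in percent, with the number tested in brackets. Dashed lines mark the shares over all protein-coding genes tested, 26.0% and 30.5%. The integrated stress response reaches furthest to the left at 88.9% and the proteasome furthest to the right at 71.0%.

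The integrated stress response is the program by which cells under amino acid shortage or protein misfolding slow general translation and make the transcription factor ATF4, which switches on amino acid synthesis, amino acid import and cell death regulators. In clone 15, 24 of its 27 tested genes fell and 1 rose, with a median of -0.74, which was -0.68 with GC and length trends removed and -0.70 relative to the genes' chromosomes. DDIT4, an inhibitor of the growth kinase mTORC1, was at 289, 329.5 and 255 CPM in the parental libraries and at 62.1, 73 and 70.1 CPM in clone 15 (log2 fold change -2.09, SE 0.09, adjusted p = 4.08e-15). ATF3, a stress-induced transcription factor, was at 87.5, 95.4 and 66.2 CPM against 32.1, 28.1 and 32.4 CPM (log2 fold change -1.43, SE 0.11, adjusted p = 3.79e-09). For both genes every clone 15 library lay below every parental one. NUPR1, a small stress-induced chromatin protein, was at 10.8, 14.7 and 10.9 CPM against 1.62, 1.59 and 2.09 CPM (-2.80), and ADM2, a secreted peptide, at 27.9, 29.4 and 30.1 CPM against 7.28, 7.84 and 10.0 CPM (-1.82). CHAC1, which degrades glutathione, fell by 0.92 on the log2 scale, and ASNS, asparagine synthetase, by 0.90. However, 80.7% of the 75-base stretches of the longest annotated transcript of ASNS also occur in another annotated gene, where reads cannot be assigned with certainty. ATF4 itself was lower by less (-0.25, SE 0.09, adjusted p = 0.0302), and its call was lost without clone 15 replicate 1 (-0.24, adjusted p = 0.07), without replicate 2 (-0.19, adjusted p = 0.0971) and with the replicate number as a block (adjusted p = 0.0692). It was at -0.16 without parental replicate 2 and at -0.41 with GC and length trends removed. Much of the regulation of ATF4 is at translation, which RNA levels do not measure. CBS was the gene that rose (0.31), it did not pass with GC and length trends removed (0.15), nor without parental replicate 1 (0.26) or 2 (0.21), and 88.4% of its stretches are shared in that way. Clone 37, against the same parental libraries, had 24 lower and 0 higher (59.6% of protein-coding genes tested in both were called in that clone) with a median of -1.03, so a high level in the parental culture and a low level in the clones cannot be told apart.

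**Figure D4:**
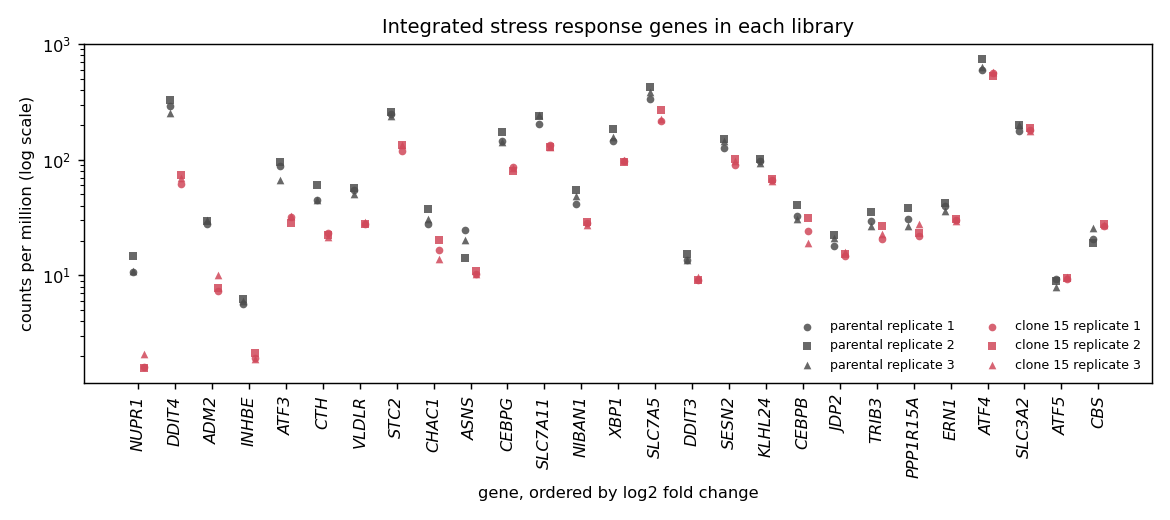
Levels in CPM of the 27 tested integrated stress response genes in each library, on a logarithmic axis, ordered from the most negative to the most positive log2 fold change (grey parental, red clone 15). From NUPR1 at -2.80 to ATF4 at -0.25 the genes passed the test as lower, and only CBS at the right end passed it as higher.

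ATF4 binds, with CEBP partners, a composite element whose core is TGATGNAA. Of 29 genes in the list 26 had a RefSeq promoter (GRCh38.p14, 250 bases before to 50 after the start), and 5 of them (19.2%) held TGATGNAA on either strand, against 388 of 15317 protein-coding promoters (2.53%). Those of 3 genes that fell are shown, on their own strand, with the match in capitals, to let the element be seen in the genes with the values above. ATF3 is at chr1:212565198-212565241, ASNS at chr7:97872451-97872494 on the minus strand and CHAC1 at chr15:40953244-40953287, where the match is on the opposite strand.
ATF3: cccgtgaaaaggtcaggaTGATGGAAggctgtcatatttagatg
ASNS: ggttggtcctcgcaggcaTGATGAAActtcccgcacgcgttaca
CHAC1: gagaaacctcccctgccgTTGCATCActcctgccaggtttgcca
The other 2 matches were in SLC3A2, which did not pass the test (-0.08), and FGF21, which was below the filter on low counts. A match describes these letters only.

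ALDH1L2 and MTHFD2, mitochondrial enzymes of folate-dependent one-carbon metabolism, were lower. ALDH1L2 was at 245, 275 and 269.5 CPM in the parental libraries and at 93.8, 86.7 and 88.7 CPM in clone 15 (-1.55), and MTHFD2 was at 365, 459 and 375 CPM against 184, 174 and 178 CPM (-1.16). Neither gene had overlapping groups. The serine synthesis enzymes PHGDH (-0.54), PSAT1 (-0.65) and PSPH (-0.66) and the alanine transaminase GPT2 (-0.69) fell as well. Over the whole list of 21 serine and one-carbon enzymes 6 fell and 3 rose, SHMT1 (0.47) and AHCY (0.44) among the latter, shares of 28.6% and 14.3% against 30.5% and 26.0% of all protein-coding genes, with a median of -0.11. With GC and length trends removed 11 fell, a median of -0.21, where 26.8% of all protein-coding genes fell. Of 22 cytosolic aminoacyl-tRNA synthetases and their scaffolds, which charge transfer RNAs, 10 fell and 4 rose. GARS1 (-0.89) was among those that fell, and HARS1 (0.68) rose most, with 7 higher when parental replicate 2 was left out. Among 26 amino acid transporters 12 fell, led by SLC1A4 (-0.95), SLC7A3 (-0.93) and the cystine carrier SLC7A11 (-0.80, and -0.40 with GC and length trends removed), and 8 rose, led by SLC43A2 (1.47), SLC7A7 (1.27, and not called at 1.02 in libraries thinned to 1 size) and SLC7A8 (0.99). Chaperones of the endoplasmic reticulum were divided, with 13 of 28 lower, among them DNAJB9 (-1.18) and HERPUD1 (-1.10), and 7 higher, among them calreticulin, CALR (0.73).

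Genes of glycolysis and of the response to low oxygen, which the factor HIF1 induces, were lower in 19 of 32 and higher in 1, or in 4 without parental replicate 2 (median -0.42, -0.50 with trends removed, -0.43 relative to chromosome). SLC2A3, a glucose transporter, was at 46.4, 43 and 29.1 CPM in the parental libraries and at 8.3, 7.56 and 8.19 CPM in clone 15 (log2 fold change -2.30, SE 0.14, adjusted p = 2.20e-10). PDK1 was at 141, 139.8 and 116 CPM against 41.9, 37.1 and 36.2 CPM (log2 fold change -1.78, SE 0.09, adjusted p = 2.66e-14), and it lies in the lower run of chromosome 2. ANKRD37, a hypoxia marker, was at 4.7, 4.63 and 3.1 CPM against 1.18, 0.796 and 1.02 CPM (-2.02), but with unstranded counts it was at -0.57 and lost its call (adjusted p = 0.131). None of these genes had overlapping groups. The mitophagy receptor BNIP3 (-1.55), the regulatory kinase PFKFB4 (-1.37), hexokinase HK2 (-1.30), the collagen prolyl hydroxylase P4HA1 (-1.13) and VEGFA (-0.83) fell, as did the glycolytic enzymes PGK1 (-0.82), ALDOA (-0.64) and LDHA (-0.59). Not all steps did, since PGAM1, the mutase of the same pathway, rose (0.41). Clone 37 had 22 lower and 2 higher of 32 against the same parental libraries.

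More genes of collagens and of the rest of the matrix fell than rose. Of 32 collagen genes tested 17 fell and 2 rose (median -0.49, -0.49 with trends removed). Without replicate 3 the counts were 17 lower and 4 higher of 31, and the higher count was 5 without replicate 1, 1 when any parental replicate was left out and 6 with the replicate number as a block. The fibroblast marker sums given above were higher in clone 15 while this list was lower, and their part in its values was not tested. COL11A1, a fibrillar collagen, was at 3.68, 3.41 and 2.5 CPM in the parental libraries and at 0.105, 0 and 0.268 CPM in clone 15, and it was tested only through the parental libraries. COL5A2 was at 26.5, 30.0 and 27.2 CPM against 10.0, 10.6 and 11.5 CPM (-1.39), COL21A1 fell too (-1.80), and the basement membrane chains COL4A1 (-0.74), COL4A2 (-0.58), COL4A5 (-0.90) and COL4A6 (-0.60) fell. COL12A1 was one of the 2 that rose (2.12, 2.2 and 2.27 CPM in the parental and 9.42, 8.96 and 20.8 CPM in the clone 15 libraries, 2.54, and 2.08 without replicate 3). Its fold change was 2.50, 2.52 and 2.55 without parental replicate 1, 2 or 3, and it did not pass in any of these 3 cases (adjusted p = 0.0546, 0.0606 and 0.0595). COL3A1 varied between libraries, at 14.5, 14.2 and 12.3 CPM in the parental and at 2.36, 2.99 and 9.47 CPM in the clone 15 libraries. Its log2 fold change was -1.55 with adjusted p = 0.103, and without replicate 3 it was -2.34 with adjusted p = 1.72e-09, and it also passed with replicate 3 kept in thinned libraries (adjusted p = 0.015) and in the fit to all 9 libraries (adjusted p = 0.0454). The opposite sign was seen for COL1A1, at 1.04 (adjusted p = 0.0799) and 0.66 without replicate 3 (adjusted p = 2.57e-05), and COL1A1 also passed without replicate 1 (1.29, adjusted p = 0.0104), by DESeq2 (adjusted p = 0.0171), in the fit to all 9 libraries (adjusted p = 0.0285) and with the replicate block (adjusted p = 0.0132).

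Of 57 other matrix proteins and remodelling enzymes 34 fell and 7 rose (median -0.47, -0.40 with trends removed), and without replicate 3 the counts were 33 and 7. HAS2, which makes hyaluronan, was at 64.7, 64.3 and 56.8 CPM in the parental libraries and at 1.96, 1.71 and 2.89 CPM in clone 15 (log2 fold change -4.86, SE 0.14, adjusted p = 1.08e-19). LOX, which cross-links collagen, was at 62.5, 64.3 and 46.5 CPM against 21.9, 20.9 and 19.5 CPM (-1.47), and the proteoglycan VCAN at 316, 338 and 330.4 CPM against 177, 152 and 177 CPM (-0.96). All clone 15 libraries, replicate 3 included, lay below the parental ones for these 3 genes. The fibulin FBLN2 (-1.90), the membrane proteinase MMP16 (-1.56) and the laminin chains LAMA2 (-1.40) and LAMA4 (-1.27) fell. FN1, fibronectin, did not pass (-0.56, adjusted p = 0.186) with clone 15 at 112, 112 and 205 CPM, and it fell without replicate 3 (-0.89, adjusted p = 3.27e-08). The carboxypeptidase-like CPXM1 rose from 3.32, 3.03 and 3.78 CPM to 21, 23.2 and 18.8 CPM (log2 fold change 2.64, SE 0.15, adjusted p = 3.66e-13), and in clone 37 it was at -5.60. EMILIN2 (2.14) and tenascin, TNC (1.28), rose too. In clone 37 the list had 39 lower and 8 higher of 56.

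Receptors and adhesion genes that meet this matrix were mixed. Of 26 integrins and collagen receptors 9 fell, led by ITGA4 (43.9, 48.4 and 41.3 CPM in the parental and 15.6, 13.7 and 14 CPM in the clone 15 libraries, -1.62) and ITGA8 (-1.61), and 6 rose, led by ITGB3 (1.47, with 55.9% of its stretches shared). Of 31 cadherins and junction genes 12 fell, among them CDH1, the epithelial cadherin (14.2, 13.4 and 12.3 CPM against 4.27, 4.3 and 3.85 CPM, -1.68), CDH3 (-1.55) and CDH7 (-3.40), and 4 rose, among them CLDN1 (1.35). Axon guidance genes, which HEK293 cells express in number, fell in 28 of 57 and rose in 11 (median -0.28, -0.32 with trends removed, -0.23 relative to chromosome). SEMA3C was at 20.4, 22.2 and 20.1 CPM in the parental libraries and at 5.31, 4.54 and 5.3 CPM in clone 15 (log2 fold change -2.05, SE 0.13, adjusted p = 4.20e-12). The netrin receptor UNC5A (-1.90), the ligand SLIT3 (-1.77) and its receptor ROBO2 (-1.35) fell, while SLIT2 (1.13) rose. EPHB6, an ephrin receptor without kinase activity, rose most, from 1.29, 3.26 and 1.97 CPM to 9.97, 11.3 and 10.6 CPM (log2 fold change 2.26, SE 0.21, adjusted p = 4.27e-09), and it was at -1.40 in clone 37.

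More proteasome subunits rose than fell. The proteasome is a barrel of alpha and beta subunits capped by regulatory particles, and it degrades ubiquitin-tagged proteins. Of 31 subunits 22 rose and 3 fell, with a median of 0.32 (0.37 with trends removed and 0.26 relative to chromosome), and no change reached 2-fold. Without parental replicate 1 or 3 the counts of subunits that rose were 15 and 17. PSMB7 was at 72.4, 91 and 75.1 CPM in the parental libraries and at 143, 133 and 148 CPM in clone 15 (log2 fold change 0.83, SE 0.09, adjusted p = 2.24e-08). PSMB6 was at 48.9, 60.5 and 49.9 CPM against 85.9, 91.4 and 93.2 CPM (log2 fold change 0.76, SE 0.09, adjusted p = 9.98e-08). The third catalytic subunit, PSMB5, was also higher (0.45), so all 3 subunits that carry the active sites rose, with no overlap between groups for PSMB7 and PSMB6. PSMA6, of the outer ring, was at 0.74. The lower subunits were PSMA2 (-0.50) and PSMC2 (-0.22) on chromosome 7 and PSMD14 (-0.37) on chromosome 2. PSMC2 and PSMD14 were at 0.02 and 0.08, and not called, with GC and length trends removed. PSMA2 was not called with those trends removed (-0.29) or without parental replicate 1 (-0.42), nor was PSMC2 (-0.18) once clone 15 replicate 2 or 3 was left out, or parental replicate 2 (-0.15). Clone 37 had 16 higher and 1 lower, where 28.3% of all protein-coding genes were higher and 31.3% lower, with a median of 0.18.

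Among nuclear genes for mitochondrial proteins, those of the mitochondrial ribosome and of protein import rose more often than they fell. Of 48 tested genes of the MRPL family, the proteins of the large mitochondrial ribosomal subunit, 28 rose and 4 fell (median 0.34, and 0.30 with trends removed). MRPL51 was at 66.9, 83.8 and 66.8 CPM in the parental libraries and at 126, 114 and 139 CPM in clone 15 (log2 fold change 0.80, SE 0.09, adjusted p = 2.01e-07), and MRPL27 (0.90) and MRPL12 (1.00) rose by more. Of 15 genes of the TIMM family, whose products take part in protein import into mitochondria, 9 rose and 1 fell (median 0.38). TIMM10 was at 12.9, 16.6 and 14 CPM against 26.7, 27.2 and 27.7 CPM (0.90). TIMM8B (0.84) and TIMM13 (0.83) rose by similar amounts. Of 58 subunits of the respiratory chain and ATP synthase 23 rose and 12 fell (median 0.19, 0.12 with trends removed), and without parental replicate 3 the counts were 15 and 14. NDUFA2 of complex I rose most (0.76), and ATP5MF (-0.93) and COX6C (-0.82) fell most.

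Cytosolic chaperones did not move as a block. Of 26 genes 9 rose and 5 fell, shares of 34.6% and 19.2%, and with GC and length trends removed 12 rose and 8 fell. HSPB8, a small heat shock protein, was at 2.49, 3.41 and 2.27 CPM in the parental libraries and at 6.73, 7.6 and 8.03 CPM in clone 15 (log2 fold change 1.44, SE 0.20, adjusted p = 1.19e-06). HSPA8, the constitutive HSP70 (0.58), its partner DNAJA1 (0.54), HSPA1B (0.78) and the co-chaperone BAG3 (0.57) rose, and HSPA13 (-0.88) fell. HSPA8 has near-identical pseudogenes, and HSPA1B has a near-identical neighbour, HSPA1A, which did not pass the filter. The element bound by heat shock factors contains GAA and TTC as inverted units, searched here as GAANNTTC with 1 base on each side. It occurred in 9 of 26 matched promoters (34.6%) and in 5.51% of all 15317. The matches in HSPB8 (chr12:119178824-119178869), DNAJA1 (chr9:33025056-33025101) and HSPA8 (chr11:123062160-123062205, minus strand) are printed because these genes rose.
HSPB8: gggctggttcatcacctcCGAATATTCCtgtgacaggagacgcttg
DNAJA1: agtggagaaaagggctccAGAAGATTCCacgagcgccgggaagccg
HSPA8: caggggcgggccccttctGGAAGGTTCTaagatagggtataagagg
Capitals mark the match. Of the other 6 genes with one, HSPA1B rose, DNAJB6 (0.05), CHORDC1 (0.12) and HSPB1 (0.24) did not pass the test, and HSPA6 and HSPA1A were not tested. Elements were searched for 3 further lists and occurred at shares closer to those of all promoters: TGGGAA, the core bound by the Notch effector, in 26.9% of Notch promoters against 22.6%, TGANNNNGC of NRF2 in 9 of 18 promoters of its targets against 42.6%, and TCACNCCAC of SREBP2 in 1 of 23 cholesterol promoters against 1.18%.

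Of 25 targets of NRF2, the factor that answers oxidative stress, 12 rose and 5 fell (median 0.35, 0.22 with trends removed and 0.20 without clone 15 replicate 3). The largest differences were in 3 neighbouring aldo-keto reductases of chromosome 10 that were almost silent in parental cells. AKR1C2 was at 0, 1 and 0 counts in the parental libraries and 45, 24 and 34 counts in clone 15, a pooled level 46.8 times higher (95% counting interval 8.21 to 1.87e+03). AKR1C3 was at 2, 1 and 2 counts against 38, 23 and 16 counts (2.74) and AKR1C1 at 2, 3 and 2 counts against 34, 16 and 20 counts (2.15). All clone 15 libraries were above all parental ones, but these 3 genes were tested only through clone 15, and the list had 11 higher of 21 and a median of 0.19 with a filter of 1 CPM in 3 libraries. They share 41.3%, 7.91% and 22.2% of their 75-base stretches with copies. Heme oxygenase, HMOX1 (0.86), the ferritin chain FTL (0.51) and the pentose phosphate enzyme PGD (0.50) rose, whereas GCLM, a subunit of the enzyme that starts glutathione synthesis, fell (-0.46, and not called at -0.15 with those trends removed), as did NFE2L2 (-0.67), which encodes NRF2 and lies on chromosome 2. Among 42 autophagy and lysosome genes 14 rose, with the hydrolases NEU1 (0.82), CTSA (0.79) and CTSD (0.79) and the receptor SQSTM1 (0.62), and 10 fell. Without parental replicate 1 the autophagy and lysosome genes that rose numbered 9. CTSZ, a lysosomal cysteine protease, fell from 4.51, 5.08 and 3.63 CPM to 0.288, 0.398 and 0.856 CPM (log2 fold change -3.22, SE 0.33, adjusted p = 1.42e-08) and was at -5.47 in clone 37.

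Cholesterol and fatty acid genes split. When sterols are scarce, the factor SREBP2 leaves the endoplasmic reticulum and induces the genes of their synthesis and uptake. Of 29 genes 12 fell and 10 rose, and 6 rose without parental replicate 1 or replicate 3. The oxygenase SQLE was at 268, 297 and 232 CPM in the parental libraries and at 111, 103 and 103 CPM in clone 15 (log2 fold change -1.34, SE 0.09, adjusted p = 5.57e-12), and it lies on the lower stretch of chromosome 8. STARD4 (-1.06), IDI1 (-1.05), INSIG1 (-0.99) and HMGCS1 (-0.98) fell, and the reductase TM7SF2 (1.00), mevalonate kinase MVK (0.70) and fatty acid synthase FASN (0.75) rose. FASN was at 700.5, 729.7 and 703 CPM against 1118, 1389.8 and 1088 CPM and lies in a higher run of chromosome 17.

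Of 47 DNA replication genes 21 fell and 5 rose, and 3 rose without parental replicate 3 (median -0.16, -0.16 with trends removed, -0.11 relative to chromosome), with the licensing factor CDT1 at 175, 198 and 167 CPM in the parental libraries and at 97.7, 114 and 88 CPM in clone 15 (-0.85), and MCM4 at -0.82. The cyclin CCNE2 (-0.75) fell and the factor E2F1 (0.61) rose. Mitotic genes went both ways, 14 of 40 higher and 12 lower, with 9 higher without parental replicate 1 or replicate 3. With GC and length trends removed 18 mitotic genes rose and 6 fell, and with protein-coding genes only 21 rose and 11 fell. Among them CDC20, the activator of the anaphase-promoting complex, was at 87.5, 101 and 95.1 CPM against 171, 182 and 178 CPM (log2 fold change 0.90, SE 0.08, adjusted p = 1.06e-09), and the phosphatase CDC25B rose as much (0.99). HMMR (-0.93), NUF2 (-0.86), BUB1 (-0.49) and TOP2A (-0.45, and not called at -0.18 with those trends removed) fell. Of 25 targets of p53, which large T antigen binds in these cells, 12 fell, with GADD45A (-1.13) and CCNG1 (-1.07) foremost, and 5 rose, led by TP53I3 (1.07). CDKN1A was lower (-0.37) and MDM2 did not pass (0.00, but 0.29 and called with those trends removed).

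Neighbouring genes on the short arm of the X chromosome were at or near 0 in clone 15. PUDP, a pseudouridine phosphatase (chrX:7048920-7148190), had 137, 181 and 154 counts in the parental libraries and 0 in all 3 clone 15 libraries. Taking 3 counts in a library as the limit of detection, its level was at least 106-fold lower. STS, steroid sulfatase (chrX:7219456-7354810), had 112, 125 and 133 counts and then 1, 0 and 0, a pooled level 814 times lower (95% counting interval 145 to 3.23e+04). PNPLA4, a lipase-like enzyme and the next gene tested, was at 12.2, 12.4 and 11 CPM against 1.13, 0.717 and 1.02 CPM (log2 fold change -3.61, SE 0.21, adjusted p = 3.13e-13). Groups did not overlap for any of the 3, PUDP and STS were tested only through the parental libraries, and clone 37, with 141, 134 and 158 counts of PUDP and 268, 203 and 271 of STS, kept both. On the side towards the telomere PRKX (-0.03) and GYG2 (0.03) did not pass the test, and ARSL between them, tested only through clone 15, was at 2.26. Of all 12 tested genes from the tip of the arm to PUDP, 6 were lower, from -0.42 to -0.99, 1 higher and 5 not called. Towards the centromere TBL1X, a corepressor subunit, fell (159.6, 174 and 156 CPM in the parental and 74.4, 71.5 and 76.3 CPM in the clone 15 libraries, -1.14) and MID1, a ubiquitin ligase of microtubules, fell further (261, 275 and 268 CPM against 70.7, 67.9 and 68.7 CPM, log2 fold change -1.96, SE 0.08, adjusted p = 1.96e-16). Between those 2 genes SHROOM2 (2.24) and CLCN4 (1.06) rose, so the stretch was not uniform. SHROOM2 and CLCN4 were at 2.36 and 1.23 in clone 37.

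**Figure D5:**
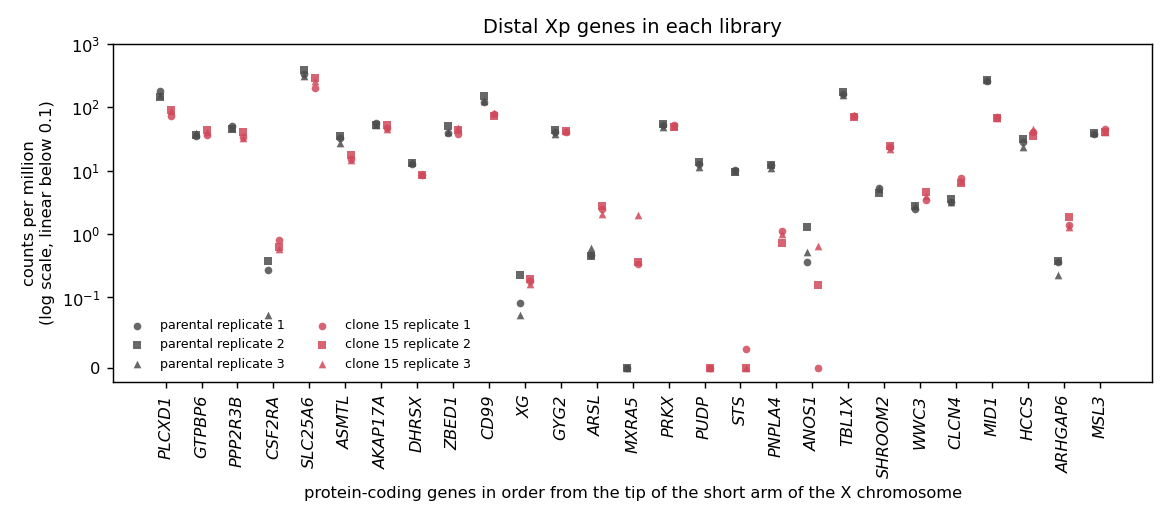
Levels in CPM of the 27 protein-coding genes with at least 10 counts on the first 12 Mb of the X chromosome, in order from the tip of the short arm, on an axis that is logarithmic above 0.1, with 1 point per library (grey parental, red clone 15). The clone 15 points drop to 0 or near it at PUDP and STS and stay low at PNPLA4, and they lie above the parental points at SHROOM2.

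In all, 23 protein-coding genes that passed the filter had at most 3 counts over the 3 clone 15 libraries, and 8 of the 23 lay on the X chromosome. Such genes pass the filter only through the parental libraries, so their direction follows from the choice. Germline genes made up a part. Cancer-testis antigens such as the MAGE-A family are expressed in testis and tumours, and DNA methylation at their promoters silences them in most tissues. Of 34 in the list 7 passed the filter, 6 of them through the parental libraries, with clone 15 at or near 0, and PRAME rose (0.32). MAGEA1 had 85, 112 and 85 counts in the parental libraries and 1, 1 and 0 in clone 15, 310.0 times lower (95% counting interval 85.1 to 2.58e+03). MAGEA12 had 29, 32 and 29 counts and then 0, at least 20.3-fold lower, and MAGEB2 had 40, 58 and 38 and then 0, at least 30.6-fold lower. In each of these all clone 15 libraries lay below all parental ones. Clone 37 had lost MAGEA1 and MAGEA12 as well (0 counts in all 3 libraries) but held 27, 32 and 30 counts of MAGEB2. GTSF1, a factor of piRNA silencing in germ cells (chr12:54455950-54473602), went from 67, 86 and 76 counts to 0, at least 51.4-fold lower, and was also at 0 in clone 37.

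MAGEA3 and MAGEA6 were lower with them (-7.89 and -8.19), but their promoters are the same in 300 of 300 bases and 42% of the 75-base stretches of MAGEA6 are shared, so their counts cannot be assigned to one or the other with confidence. The RefSeq promoter of MAGEA3 (chrX:152698544-152698843, GRCh38.p14, plus strand) holds 19 CG dinucleotides, in capitals below, close to the median of 22 over all 15317 promoters. It is shown because these are the bases at which such promoters are methylated.
MAGEA3: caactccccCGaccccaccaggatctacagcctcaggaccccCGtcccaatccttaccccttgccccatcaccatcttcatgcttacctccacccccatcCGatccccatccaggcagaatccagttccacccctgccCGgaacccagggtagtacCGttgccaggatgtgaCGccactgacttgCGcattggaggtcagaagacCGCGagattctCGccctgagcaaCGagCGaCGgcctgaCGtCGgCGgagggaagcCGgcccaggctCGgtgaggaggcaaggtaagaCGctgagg
That of MAGEA12 holds 9, that of MAGEB2 21 and that of PRAME 13. Methylation was not measured.

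Genes at or near 0 in clone 15 were also found outside the germline list. FABP5, a fatty acid binding protein, had 118, 174 and 145 counts in the parental libraries, 1, 2 and 0 in clone 15 and 167, 139 and 188 in clone 37. The thiamine transporter SLC19A3 (chr2:227683763-227718031) had 44, 71 and 63 counts in the parental libraries and 0 in clone 15, at least 39.6-fold lower, with 69, 57 and 72 in clone 37. STEAP1B had 39, 46 and 42 counts and then 1, 1 and 0, 140.0 times lower (95% counting interval 37.9 to 1.17e+03), with 37, 50 and 41 in clone 37. The imprinted ubiquitin ligase gene MKRN3 (40, 32 and 42 counts, then 1, 0 and 1), the oxygenase gene RIOX1 (29, 37 and 37, then 0, 1 and 1) and the zinc finger gene ZFP82 (26, 37 and 34, then 0, 0 and 2) were near 0 in clone 37 too. TCIM, a regulator of Wnt signalling on chromosome 8, was at 16.9, 16.6 and 11.8 CPM in the parental libraries and at 0.0785, 0.0398 and 0.0535 CPM in clone 15, and it too was tested only through the parental libraries. LCP1, an actin-bundling protein usual in blood cells, fell from 63.2, 75.2 and 62.7 CPM to 1.39, 0.995 and 1.02 CPM (log2 fold change -5.83, SE 0.14, adjusted p = 5.27e-21), and the cell surface protein TENM1 from 81.4, 62.9 and 76.1 CPM to 7.09, 5.81 and 6.42 CPM (log2 fold change -3.50, SE 0.11, adjusted p = 2.70e-18). In clone 37 TCIM was at -3.66, LCP1 at -1.14 and TENM1 at 0.80.

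Gains from near silence were fewer. Of 8 protein-coding genes with at most 3 parental counts in all, 6 passed as higher, a direction that again follows from the choice, and the other 2 were COL1A2 and TGFBI, described above with replicate 3. UGT3A1, a glycosyltransferase, had 3, 0 and 0 counts in the parental libraries and 110, 61 and 42 in clone 15, 32.3 times higher (95% counting interval 10.9 to 158). PCDHAC2, a protocadherin, had 0, 2 and 0 and 63, 26 and 28, though 47.5% of its stretches are shared with its cluster, and the potassium channel gene KCNJ10 had 0, 2 and 1 and 26, 20 and 13, but lost its call with unstranded counts (0.22, adjusted p = 0.624). Their clone 15 libraries all lay above the parental ones.

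Abundant genes with a large rise included the neurofilaments, the intermediate filaments of axons. NEFM, the medium chain, was at 566, 667 and 469.7 CPM in the parental libraries and at 2719, 2594 and 2806 CPM in clone 15 (log2 fold change 2.25, SE 0.12, adjusted p = 6.08e-14), and NEFL, the light chain next to it on chromosome 8, at 236, 270.0 and 210.1 CPM against 701, 722 and 707 CPM (log2 fold change 1.57, SE 0.10, adjusted p = 1.05e-12). In clone 37 they were at -2.05 and -1.98, the other direction from the same parental libraries. Other intermediate filaments did not follow, with VIM at -0.03 and NES at -0.20, neither called, INA lower (-0.45) and KRT18 higher (0.77). CLU, the secreted chaperone clusterin, was at 27.2, 27.2 and 24.1 CPM against 200.2, 193 and 195 CPM (log2 fold change 2.91, SE 0.09, adjusted p = 3.66e-19). The muscle M-band gene MYOM2 rose from 43.5, 37.2 and 41 CPM to 246, 239 and 245 CPM (2.59) and the zinc finger gene ZCCHC12 from 24.7, 33.5 and 26.7 CPM to 184, 172 and 179 CPM (2.65). CLU and MYOM2 were at -0.81 and -2.11 in clone 37. Of 15 tubulins 8 rose and 3 fell (median 0.28, 0.16 with trends removed), with TUBB4B at 219, 266 and 229.9 CPM against 443, 495 and 470.4 CPM (0.98), TUBB6 at 0.86 and TUBA4A at -0.72, though 9 of the 15 share over 5% of their 75-base stretches with copies.

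Signalling lists held single genes with large changes in both directions. Of 29 Notch genes 6 rose and 6 fell, with 3 higher without parental replicate 1 or replicate 3 and 10 lower with GC and length trends removed. HES5, a target, rose (3.11), while another target, HES1, fell (-0.83). The largest other rise was in DTX3 (0.86). NOTCH1, NOTCH2 and NOTCH3 were at -0.06, -0.06 and 0.05, none called. Of 12 neuregulin and ERBB genes the ligand NRG1 rose (3.72), and the receptors ERBB4 (19.6, 19.9 and 21.2 CPM in the parental and 7.88, 8.4 and 7.55 CPM in the clone 15 libraries, -1.35) and EGFR (54.2, 64.9 and 55.2 CPM against 27.3, 24 and 27.9 CPM, -1.14) fell. The ligand HBEGF (0.80) and the receptor ERBB2 (0.28) rose, and EGF (0.06) and ERBB3 (0.08) did not pass. In the BMP and TGF-beta list 14 of 40 fell and 9 rose, and 14 rose with GC and length trends removed. The activin chain INHBA, tested only through the parental libraries, was at 3.22, 3.87 and 1.13 CPM there and at 0.183, 0.0398 and 0.321 CPM in clone 15, ID2 (-1.04) and ID4 (-1.42) fell, and ID1 (0.70), ID3 (0.88), the inhibitor SMAD6 (1.33) and the secreted factor CCN2 (1.59) rose. Of 37 Wnt genes 16 fell and 3 rose (median -0.23), the inhibitor SFRP2 (-0.92) among the former and the receptor FZD8 (0.88) among the latter, and the feedback gene AXIN2 did not pass (0.06). Of these genes 6 rose with GC and length trends removed (median -0.15) and 5 without parental replicate 2. Among 32 immediate early genes FOS (8.29, 10.5 and 6.13 CPM in the parental and 1.39, 1.67 and 1.87 CPM in the clone 15 libraries, -2.36), JUN (-0.90) and EGR1 (-0.84) were in the 11 that fell, and DUSP4, a phosphatase of ERK on chromosome 8, led the 4 that rose (1.86).

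Developmental regulators moved in both directions. Of 37 HOX genes 14 rose and 4 fell (median 0.10), and with GC and length trends removed 9 rose (median -0.02). Without clone 15 replicate 1 or 3, or parental replicate 2 or 3, the median was 0.18 to 0.22, and 2 fell without clone 15 replicate 1 or 2. HOXA13 fell from 129, 126 and 119.5 CPM to 52.3, 47.8 and 52.6 CPM (log2 fold change -1.29, SE 0.08, adjusted p = 1.67e-12), while HOXC12 (1.83) and HOXB4 (0.74) rose. HOXD13 on chromosome 2 fell (-0.35). Of 25 kidney development factors 12 fell and 3 rose, 1 without parental replicate 1 or replicate 3. SIX2, a marker of nephron progenitors on chromosome 2, fell from 20.7, 23 and 18.5 CPM to 2.38, 3.9 and 3.43 CPM (log2 fold change -2.71, SE 0.17, adjusted p = 1.51e-12), and the neural and renal factor SOX11, tested only through the parental libraries, was at 0.645, 1.29 and 0.757 CPM there and at 0.0262, 0.119 and 0.0535 CPM in clone 15. POU3F3 (-1.30) and SOX4 (-1.20) fell too, and PAX2, a paired-box regulator of the kidney, did not pass (0.10).

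Housekeeping lists had counts that varied with the processing. Of 77 cytosolic ribosomal proteins 12 rose and 15 fell (median -0.01). The higher count was 6, 22 and 5 when parental replicate 1, 2 or 3 was left out, and the median ran from -0.10 to 0.08 over the alternatives. RPS2, which has many processed copies, was at -1.12. The 8 subunits of the TRiC chaperonin, which folds actin and tubulin, ranged from -0.45 for CCT4 to 0.54 for CCT2, and 3 of them passed the test, with 4 higher when parental replicate 2 was left out. Of 38 splicing regulators 10 rose and 7 fell, the muscleblind genes MBNL2 (-1.04) and MBNL3 (-0.94) among the latter. With GC and length trends removed 18 splicing regulators rose and 6 fell (median 0.17), and without parental replicate 1 or replicate 3, 5 rose. Muscleblind proteins bind CUG and related repeats. Of 30 DNA methylation and silencing genes 8 rose and 8 fell, and 5 rose without parental replicate 1: the methyltransferase DNMT3A on chromosome 2 (96.8, 98.8 and 95.4 CPM in the parental and 43.8, 45.2 and 49.8 CPM in the clone 15 libraries, log2 fold change -1.07, SE 0.08, adjusted p = 7.76e-11) and the heterochromatin protein gene CBX5 (-0.93) fell, and DNMT3B rose (0.68). Groups did not overlap for DNMT3A.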

How the data were processed

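Total RNA of clone 15 and parental HEK293T cells was sequenced with directional libraries, 3 per group, and clone 37 was used side by side only. The deposited values are raw read counts per gene. Per the submitters' processing notes the authors used FastQC 0.11.9, STAR 2.7.10a and hg38. The annotation release is not given in the sources used here. GENCODE 29 gave names, types and positions for 58496 of 60683 identifiers.

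From each deposited count table the reverse-strand column was taken, which matches the directional kit, and the 4 summary entries were dropped. Genes were kept by edgeR's filterByExpr, scaled by TMM, and tested with edgeR 4.0.16 (R 4.3.3) by the quasi-likelihood test, with Benjamini-Hochberg adjustment over all 17703 genes and calls at 0.05. CPM values are counts scaled to the TMM-scaled library total, and fold changes are log2 of clone 15 over parental. SE is that of the fitted log2 fold change. The scripts were tested on simulated data, where the share of false calls at few changed genes was above the 0.05 that the adjusted p names, so calls close to that threshold are less certain than it says. Gene counts per library, from 10809034 to 38093340, set the precision, and counting intervals (95%) and floors cover counting error only. Promoters and their sequences are from RefSeq on GRCh38.p14. Each alternative changed 1 choice, except DESeq2 1.42.0, which changed the test and was also run without the filter on low counts. The genes that could be tested changed with some of the alternatives. The others were normalisation, filters, strand, all 9 libraries, a replicate block, thinning and protein-coding genes only. Further ones were GC and length trends removed by offsets, genes with at most 5% shared 75-base stretches (in the longest transcript), and each library left out.

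The members and gene lists were chosen with earlier results of these data known. Genes were named by a rule: the 12 largest increases and decreases at 5 CPM or more without overlap between groups, the 3 most changed called members of each list and of the described families, genes of the described runs, and all tested members of short lists. From these the text names a part (some genes are not reported here), and it adds other members that were chosen after their values were seen.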

Additional observations from a re-analysis of the deposited data

How the results depend on the processing

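Under 17 alternatives no count of calls over all protein-coding genes moved by more than 1.5 times. Counts in gene lists moved more: of 35 list counts of at least 10 genes, 10 moved by over 1.5 times under at least 1 alternative, 6 of them when a library was left out, and of all 82, 34 did. The replicate numbers of the labels did not pair the samples, since the deviations of same-numbered libraries correlated at -0.0006, -0.0026 and -0.0096, and with the replicate number as a block 3367 protein-coding genes were higher and 3937 lower, of which 7247 were among the 7619 called without it. Leaving out each library in turn gave 2847 to 3685 higher and 3595 to 4030 lower, and DESeq2's Wald test, run without the filter on low counts, gave 2948 and 3890. Higher calls were 46.0% of protein-coding calls, 52.9% once the dependence on GC and length was removed (4067 higher, 3621 lower) and 51.2% with protein-coding genes only (4109 and 3916). Of the 7617 calls tested with those trends removed 250 had the other sign, and with unstranded counts 22 did. Among genes named in the text PSMC2 (0.0185) and PSMD14 (0.0799) changed sign in this way, 14 lost their call and 13 gained one under at least 1 alternative, and 256 of 283 kept both sign and call. Calls were gained for SLC3A2 (-0.25), MDM2 (0.29) and CHORDC1 (0.49) with GC and length trends removed, and for VIM (-0.29) with unstranded counts. CHORDC1 also gained its call with protein-coding genes only (0.16), in thinned libraries (0.19) and without clone 15 replicate 2 (0.19). HSPB1 gained one without clone 15 replicate 3 (0.36) or parental replicate 2 (0.33). It also did so with all 9 libraries (0.24), the replicate block (0.23), protein-coding genes only (0.29) and genes with few shared stretches (0.25). The other gains were in COL1A1, COL1A2, COL3A1, COL6A3, FN1, GREM1, TGFBI and THBS1, whose clone 15 replicate 3 stood apart. Under an alternative that left their call, 24 genes moved by over 1.5 times, 17 of them with GC and length trends removed: AHCY (0.28), ATF2 (-0.57), ATF4 (-0.41), CCNE2 (-0.45), ERBB2 (0.17), FTL (0.29), HSPA13 (-0.52), MBNL3 (-0.56), PRAME (0.20), REL (-0.65), ROCK2 (-0.35), RUNX1T1 (-0.42), SANBR (-0.34), SEMA3A (-0.72), SEPTIN7 (-0.61), SLC7A11 (-0.40) and STARD4 (-0.68). SCN2A (-2.81) and ACTA2 (-2.13) did so in thinned libraries, RIOX1 (-4.19), ACTA2 (-0.71), SEPTIN1 (-0.45) and SLC7A7 (0.64) with unstranded counts, and UGT3A1 (8.78) and PCDHAC2 (7.90), both near 0 in the parental group, without parental replicate 1 and 2 respectively. The median of each gene's chromosome was subtracted as an alternative chosen after seeing the data. The signs of the list medians for the integrated stress response (-0.79 to -0.65), proteasome (0.24 to 0.40), glycolysis and hypoxia (-0.53 to -0.37), collagens (-0.58 to -0.42) and axon guidance (-0.32 to -0.22) held under all 17, while those of the ribosomal proteins, splicing regulators, TRiC, DNA methylation, glycosphingolipid, HOX, BMP and TGF-beta, Notch and neuregulin lists did not.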

Other observations

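The actin list, with 13 of 31 genes higher and 6 lower against 26.0% and 30.5% of all protein-coding genes, held changes in abundant cytoskeletal genes. FLNA, filamin A, was at 877, 927 and 815 CPM in the parental libraries and at 1581, 1784 and 1619.7 CPM in clone 15 (log2 fold change 0.93, SE 0.10, adjusted p = 2.94e-08). MYL6, a myosin light chain, was at 101, 125 and 102 CPM against 187, 198 and 197 CPM (0.83), and TAGLN, transgelin, at 3.59, 1.97 and 4.16 CPM against 5.68, 5.81 and 6.05 CPM (0.85). All 3 rose, but TAGLN lost its call in libraries thinned to 1 size (0.49) and with unstranded counts (0.24). ACTA2, smooth muscle actin (-1.30, -0.71 with unstranded counts and -2.13 in thinned libraries), and the kinase ROCK2 on chromosome 2 (-0.66) fell. Septins, filament-forming GTPases, had the lowest median of 159 symbol families with at least 10 tested genes, -0.73 (-0.61 with GC and length trends removed), with 7 of 11 lower and 1 higher. SEPTIN2 (-0.73) and SEPTIN10 (-1.16) lie on chromosome 2 and SEPTIN7 (-0.98) on chromosome 7. SEPTIN3 (-0.92) and SEPTIN5 (-1.36, and not called at -1.02 in thinned libraries) lie on chromosome 22. SEPTIN1 (-1.45, and -0.45 with unstranded counts) lies on chromosome 16. The medians of chromosomes 2, 7, 22 and 16 were -0.48, -0.35, -0.08 and -0.24, and the part of position was not tested.

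The highest median of the families, 0.91, was that of the taste receptors, grouped by symbols that begin with TAS. Of these, 7 of 12 rose and 0 fell at an adjusted p under 0.05 by edgeR's quasi-likelihood test. Levels were low for 2 bitter taste receptors of chromosome 12. TAS2R30 averaged 2.3 CPM in the parental libraries and 6.21 CPM in clone 15 (1.45), and TAS2R31 2.22 CPM and 4.36 CPM (0.99). In clone 37 these 2 genes were at -0.24 and -0.41. Reads with several genomic matches made up 12.8% of parental and 5.14% of clone 15 read pairs. Their part in the values of this family was not tested. Sodium channel genes fell in 5 of 10, with SCN9A, a channel of sensory neurons, at -1.74 and SCN2A at -1.57, both on chromosome 2. Of 13 synaptotagmins, sensors of calcium in secretion, 7 fell, led by SYT13 (-2.63), and 4 rose, led by SYT14 (1.00).

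In the BEX, TCEAL and ARMCX cluster of the X chromosome and related MAGE genes, 12 of 21 fell and 3 rose. BEX1 was at 6.91, 6.98 and 6.05 CPM in the parental libraries and at 3.06, 3.62 and 4.34 CPM in clone 15 (-0.87), and ARMCX2 at 4.88, 8.34 and 6.58 CPM against 2.36, 1.99 and 2.03 CPM (-1.63). For both genes the groups did not overlap, and in clone 37 they were at -2.51 and -2.31. ARMCX4 rose (1.27) and was at -3.43 in clone 37. The enzyme FUT1, which makes the H antigen, fell from 11.8, 9.41 and 9.46 CPM to 2.49, 2.39 and 2.25 CPM (-2.09), and the sialyltransferase ST3GAL1 of chromosome 8 fell (-1.08).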
